A study of Homo sapiens with 12 samples.

Results

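The genes considered here encode the proteins that hold RNA polymerase II near promoters and those that release it. They were HEXIM1, LARP7 and MEPCE of the 7SK ribonucleoprotein, CDK9, CCNT1 and CCNT2 of the kinase P-TEFb, SUPT5H of the factor DSIF, and NELFCD and NELFE of the negative elongation factor NELF. All probes of the array whose RefSeq accession belongs to 1 of these 9 genes were taken, with no use of their measured values. The genes themselves, and the lists of related genes below, were chosen with earlier results of these data known. The array names 16557 genes in this way, and the members had 16 probes among the 41000 gene probes of the array, 2 for each of 7 genes and 1 each for CCNT1 and SUPT5H. The RNA component of the complex, RN7SK, had no named probe and is not analysed here.

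The RNA came from H358 cells, a human lung adenocarcinoma line, carrying a doxycycline-dependent (Tet-On) SRSF2 transgene as a single inducible clone. In the 6 arrays labelled SRSF2 over-expression the cells had received 1 µg/mL doxycycline for 24 h. The 6 control arrays came from the same H358/Tet-On/SRSF2 clone with the treatment given as none, although their source name also mentions a 24 h induction, so whether they met doxycycline is not settled. Each RNA was hybridised in a single colour (Cy3) to a 44k human array, and each of 3 slides held 2 arrays per condition. The methods give 2 arrays per labelling and 3 labellings, so the 6 arrays of a condition were not all separate labellings, nothing states separate cultures, and the p-values measure a spread that may be technical.

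In the resting state, 7SK RNA and HEXIM proteins keep P-TEFb, a pair of CDK9 and a cyclin T, inactive. MEPCE caps and protects the 5′ end of 7SK, LARP7 binds its 3′ end, and HEXIM1 contacts the kinase. Released P-TEFb phosphorylates NELF, DSIF and the polymerase tail, NELF leaves, DSIF turns into a positive elongation factor, and the paused polymerase moves on. SRSF2, an SR protein best known for binding splicing enhancers in exons, has also been found in the 7SK complex at promoters. HEXIM1 was first described as a gene induced by hexamethylene bisacetamide. The comparison asks which of these genes differed in transcript level between the conditions.

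Some facts of the whole series touch these results. Between 54.2% and 68.0% of the gene spots of an array were well above background, with a median of 61.3% in control and 63.1% in SRSF2 over-expression arrays, and no spot was saturated. The SRSF2 probe A_23_P77776 went against the label: it fell from 3.92 ± 0.10 to 2.47 ± 0.10 (SD, n = 6 arrays each, log2 signal scaled to the array's 75th percentile). Which part of the transcript this probe reads is not given in the sources used here, and directions below are those of the arrays as labelled. SRSF2 was also measured in the study by RT-PCR and western blotting, which are not analysed here. The epithelial markers EPCAM, CDH1, KRT7, KRT8, KRT18 and KRT19 were all detected, as were NKX2-1 and NAPSA of lung epithelium, while SFTPB was not. Of markers of other cell types, PTPRC and DES were well above background on 0 arrays, 1 of 2 CD3E probes passed and read -0.03, and PECAM1 was detected and fell by 0.46 on the log2 scale. The epithelial markers moved both ways: KRT7 fell by 1.32 and KRT19 by 0.50, whereas EPCAM rose by 0.21, NKX2-1 by 0.42 and 0.34 on 2 probes, KRT8 by 0.18 on 1 of 2 probes and NAPSA by 0.63 on 1 of 2 probes. The CDH1 probe read 0.03 and the 3 KRT18 probes -0.09 to -0.15, and none of these passed. Their part in the results below was not tested, and in bulk RNA fewer cells with a transcript and less of it per cell cannot be told apart. Changes were widespread, since limma called 57.7% of the 24330 tested probes at an adjusted p of at most 0.05, with 29.7% rising and 28.0% falling.

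The promoters of the 3 genes whose probes all rose are shown here to give their sequence context. Each is the 100 bases before an annotated transcription start, taken from RefSeq (GRCh38.p14) and written 5′ to 3′ along the gene's strand. Capitals mark motifs found on either strand. They are the core of the box that Sp1 binds, spelled GGGCGG, the box bound by the factor NF-Y, spelled CCAAT, and the box bound by the TATA-binding protein, spelled TATAAA. MEPCE has 3 annotated starts, and the other members lie on chromosomes 2 (CCNT2), 4 (LARP7), 6 (NELFE), 9 (CDK9), 12 (CCNT1) and 19 (SUPT5H).
HEXIM1, chr17:45148375-45148474, plus strand: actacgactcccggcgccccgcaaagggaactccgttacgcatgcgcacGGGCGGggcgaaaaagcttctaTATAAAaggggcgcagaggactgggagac
NELFCD, chr20:58981156-58981255, plus strand: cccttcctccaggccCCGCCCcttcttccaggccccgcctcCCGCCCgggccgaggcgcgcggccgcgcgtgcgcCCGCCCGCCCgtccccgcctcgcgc
MEPCE start 1, chr7:100428690-100428789, plus strand: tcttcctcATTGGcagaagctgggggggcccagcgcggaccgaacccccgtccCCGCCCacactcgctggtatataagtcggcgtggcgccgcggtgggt
MEPCE start 2, chr7:100429347-100429446, plus strand: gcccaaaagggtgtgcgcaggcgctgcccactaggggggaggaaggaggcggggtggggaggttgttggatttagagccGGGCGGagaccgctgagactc
MEPCE start 3, chr7:100429731-100429830, plus strand: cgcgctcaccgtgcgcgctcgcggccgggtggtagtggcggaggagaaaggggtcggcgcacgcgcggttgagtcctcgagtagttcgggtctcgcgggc

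The HEXIM1 stretch holds a TATA box, and matches that overlap, as in NELFCD, run together. In the full window of 250 bases before the start, HEXIM1 had 2 Sp1 boxes, 2 CCAAT boxes and 1 TATA box, and NELFCD had 4 Sp1 boxes. The 3 MEPCE starts had 3, 4 and 0 Sp1 boxes, with 1 CCAAT box at start 1, and CCNT2 had 3 Sp1 boxes and 1 CCAAT box. Genes without a called rise had such boxes too, with 3 Sp1 boxes for NELFE and 2 for CDK9. LARP7 had 1 Sp1 box at each start and 2 CCAAT boxes at start 1. A TATA box of this spelling was present in 10.7% of the 35116 RefSeq promoter windows of that length, an Sp1 box in 42.6% and a CCAAT box in 32.0%. Such matches describe letters, not sites in use.

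Control cells and cells labelled SRSF2 over-expression differed in 10 of the 15 member probes that could be tested, a share of 66.7% against the 57.7% of all tested probes. Both probes of HEXIM1, MEPCE and NELFCD rose, by 1.40- to 1.76-fold. Of the 2 CCNT2 probes 1, close to background, rose at least 2.81-fold in this processing. Its log2 change was 1.54 here and 0.88 without background subtraction. With another background correction (normexp, below) it was 0.27 and did not pass (limma adjusted p = 0.75). LARP7 fell in 1 of 2 probes and NELFE fell slightly in both. CDK9 and SUPT5H did not pass the threshold, and CCNT1 was too dim to enter the test. In all 7 probes rose and 3 fell, and for 7 rising and 0 falling probes the arrays of the conditions did not overlap, which was so for 21.2% (higher) and 18.9% (lower) of all tested probes. The median log2 fold change of the 15 member probes was 0.31, against 0.01 for all tested probes. That middle value is the change of CDK9 A_23_P158083, which was not called, and 7 genes enter with 2 probes each. A single member probe, of CCNT2, was deregulated at least 2-fold, a size that 7.00% of tested probes reached.

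**Figure D1:**
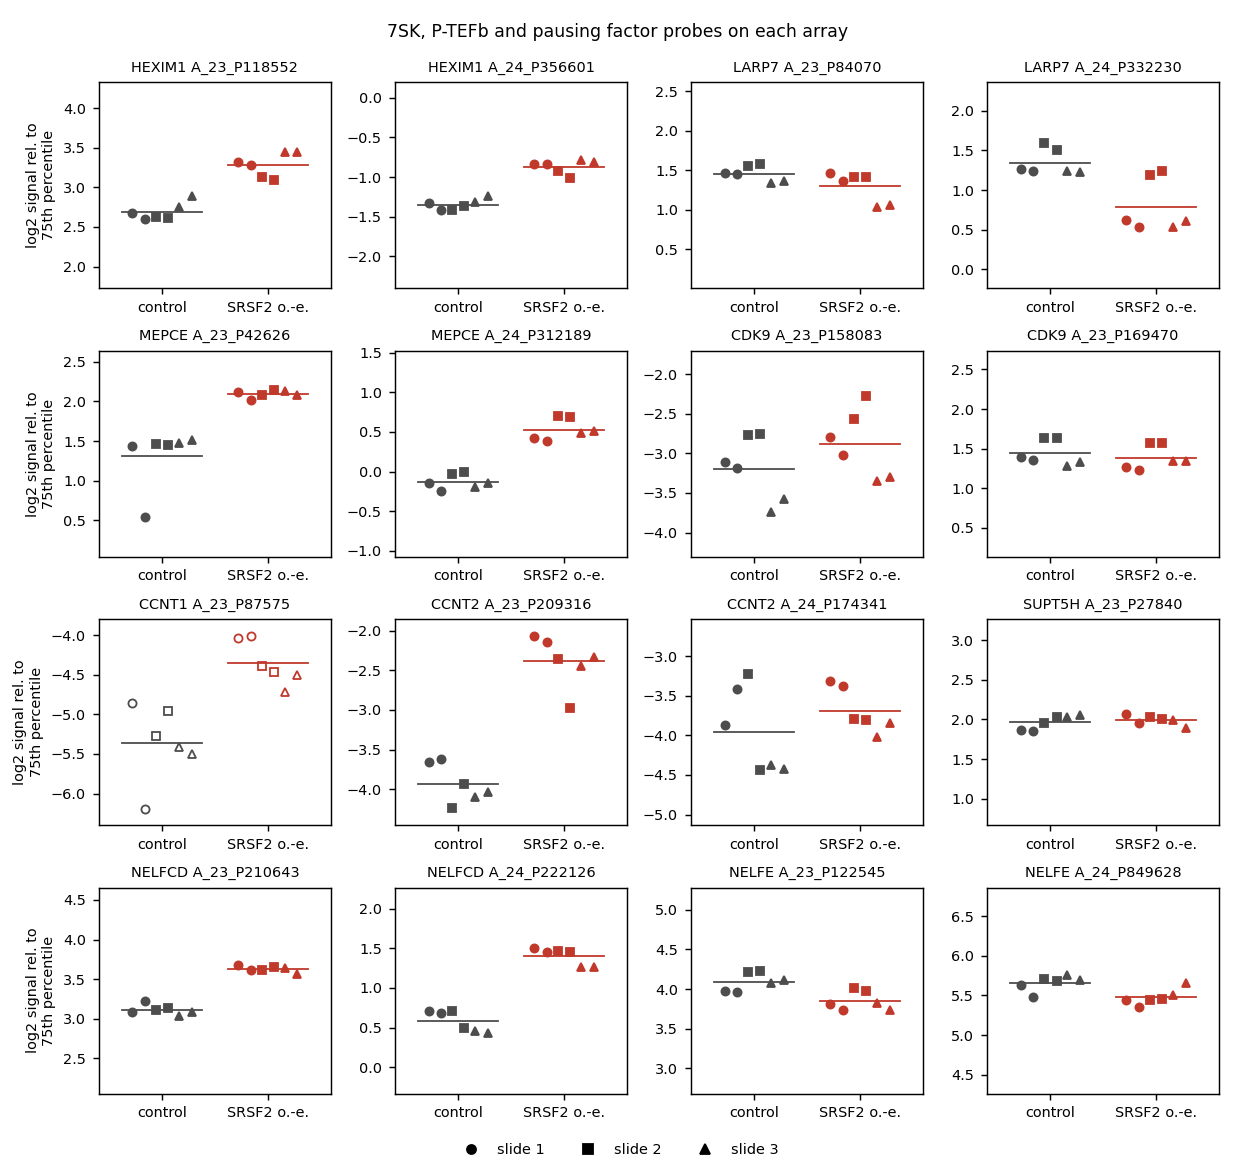
Log2 signal (y axis, scaled to the array's 75th percentile) of each of the 16 member probes on the 6 control arrays (grey) and the 6 arrays labelled SRSF2 over-expression (red, "SRSF2 o.-e."). Each panel spans the same log2 range, symbols mark the 3 slides, lines are condition means, and open symbols mark the CCNT1 probe, which was not tested. The conditions lie apart for HEXIM1, MEPCE, NELFCD, CCNT1 and CCNT2 A_23_P209316, and 1 control array of MEPCE A_23_P42626 stands at 0.54.

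HEXIM1, the inhibitor that binds P-TEFb through 7SK, rose in both of its probes. On probe A_23_P118552 the lowest, median and highest control arrays read 2.60, 2.65 and 2.89 (log2 signal scaled to the array's 75th percentile, the scale of all levels below), and the arrays labelled SRSF2 over-expression read 3.09, 3.30 and 3.45. Every array of the latter condition was above every control array. The mean went from 2.69 ± 0.11 to 3.29 ± 0.15 (SD, n = 6 arrays each), a log2 change of 0.59 with a standard error (SE) of 0.08 and a limma adjusted p of 2.49e-05. Probe A_24_P356601 read -1.42, -1.35 and -1.24 in control and -1.01, -0.84 and -0.79 in SRSF2 over-expression arrays, again without overlap, and rose by 0.48 with a standard error of 0.05 (limma adjusted p = 5.97e-06). Within slides 1, 2 and 3 the differences were 0.67, 0.49 and 0.63 on the first probe and 0.54, 0.42 and 0.48 on the second. The sizes were not unusual for this experiment, since 11.7% and 15.8% of all tested probes rose as far or farther. Normexp background correction subtracts the local background of each spot and then models what background remains. With it the second probe rose by 0.15 (limma adjusted p = 0.678) and the first stayed past the threshold.

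MEPCE, the capping enzyme that stabilises 7SK, also rose in both of its probes. Probe A_23_P42626 read 0.54, 1.45 and 1.51 at the lowest, median and highest control array and 2.02, 2.10 and 2.14 in SRSF2 over-expression arrays. Its mean went from 1.31 ± 0.38 to 2.10 ± 0.04 (SD, n = 6 arrays each), a log2 change of 0.78 (SE 0.14, limma adjusted p = 0.000475). The wide spread of the control came from replicate 2, at 0.54, while the other control arrays lay between 1.44 and 1.51. Without that array the fold change was 0.63 (log2, limma adjusted p = 1.62e-07). Probe A_24_P312189 read -0.25, -0.14 and 0.00 in control and 0.38, 0.50 and 0.70 in SRSF2 over-expression arrays, and rose by 0.66 (SE 0.07, limma adjusted p = 4.59e-06). Neither probe overlapped between conditions, and the within-slide differences were 1.08, 0.66 and 0.61 for the first and 0.60, 0.71 and 0.67 for the second.

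LARP7, which binds the 3′ end of 7SK and keeps the complex together, did not share this rise. On probe A_24_P332230 the control arrays read 1.23, 1.25 and 1.59 and the SRSF2 over-expression arrays 0.53, 0.62 and 1.24. Of the SRSF2 over-expression arrays 1, on slide 2, reached into the range of the control arrays. The mean fell by 0.56 on the log2 scale (SE 0.14, limma adjusted p = 0.004), with differences of -0.67, -0.34 and -0.67 within slides 1 to 3. This fall was not past the threshold when arrays were scaled on spike-in controls (-0.35, limma adjusted p = 0.258), with normexp (-0.38, limma adjusted p = 0.251) or without slide 3 (-0.50, limma adjusted p = 0.0513). Probe A_23_P84070 read 1.34, 1.45 and 1.58 in control and 1.04, 1.39 and 1.47 in SRSF2 over-expression arrays, with overlap and a log2 change of -0.16 (SE 0.09, limma adjusted p = 0.132). With the replicate number as a block its limma adjusted p was 0.0302, but with means of 2 arrays and slide as a block it was 0.147. The differences within slides were -0.03, -0.15 and -0.30, and on spike-in scaling the change was 0.05, below the 0.21 by which that scaling raised the median of all probes. Within arrays, LARP7 A_23_P84070 changed by -0.94 relative to MEPCE A_23_P42626 (exact permutation test over 924 arrangements, two-sided p = 0.00216, the smallest it can give, 0.00649 adjusted over 6 pairs of members), and by -0.79 without control replicate 2 (exact permutation test, adjusted p = 0.00649).

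**Figure D2:**
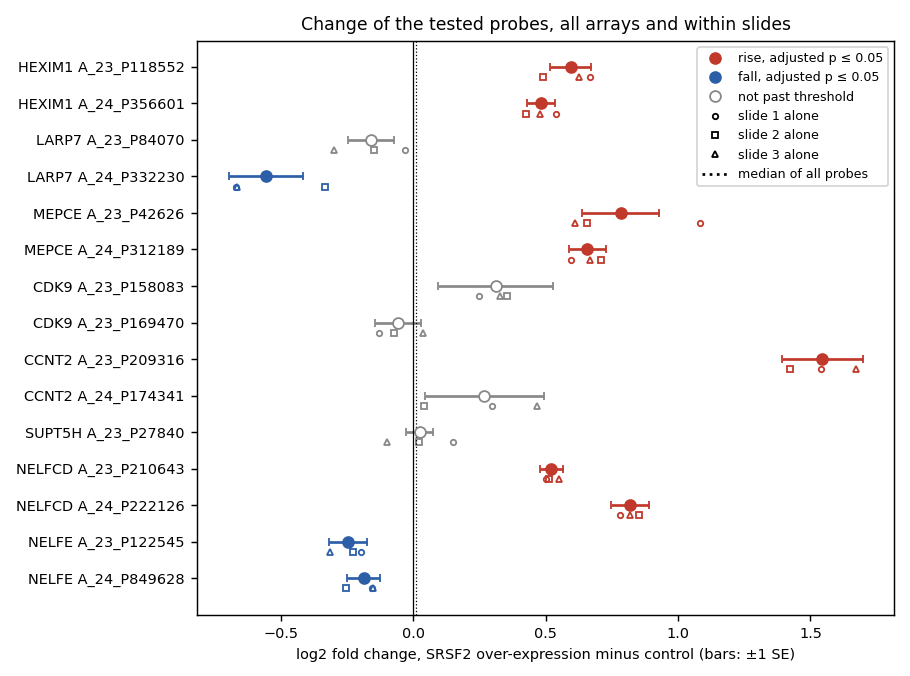
Log2 fold change (x axis, SRSF2 over-expression minus control) of the 15 tested member probes, with bars of 1 standard error over 12 arrays. Small symbols are the differences within each slide and the dotted line is the median of all tested probes, 0.01. HEXIM1, MEPCE, NELFCD and CCNT2 A_23_P209316 lie right of 0 on all 3 slides, and LARP7 A_24_P332230 and both NELFE probes lie left of it.

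CDK9, the kinase of P-TEFb, did not pass the threshold on either probe in the test without blocks. Probe A_23_P169470, spotted 10 times per array, read 1.28, 1.38 and 1.64 in control and 1.23, 1.34 and 1.57 in SRSF2 over-expression arrays, and the conditions overlapped throughout. Its log2 change was -0.06 (SE 0.09, limma adjusted p = 0.605). Probe A_23_P158083, well above background on every array, read -3.74, -3.15 and -2.76 in control and -3.35, -2.90 and -2.27 in SRSF2 over-expression arrays. Its change was 0.31 (SE 0.22, limma adjusted p = 0.243), with differences of 0.25, 0.35 and 0.33 within slides. In both conditions slide 2 read highest and slide 3 lowest, and with the replicate number as a block this probe had a limma adjusted p of 0.0012. Its sign was not stable, since it read -0.25 with normexp (limma adjusted p = 0.753).

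The cyclins T, which pair with CDK9 and activate it, were read by probes close to background. CCNT2 probe A_23_P209316 read -4.24, -3.99 and -3.62 in control and -2.98, -2.34 and -2.07 in SRSF2 over-expression arrays, with a gap between the conditions. It was well above background on 5 of 6 control and 6 of 6 SRSF2 over-expression arrays. The mean went from -3.93 ± 0.25 to -2.39 ± 0.32 (SD, n = 6 arrays each), a log2 change of 1.54 (SE 0.15, limma adjusted p = 2.4e-06) which 1.11% of tested probes matched or passed in this direction, with 1.54, 1.42 and 1.67 within slides. Taking the same bound as for CCNT1 below, it was at least 2.81-fold higher on SRSF2 over-expression arrays in this processing. The bound allows for dim control arrays, not for the choice of background correction. Without background subtraction the change was 0.88 (limma adjusted p = 5.62e-06), and with normexp it was 0.27 (limma adjusted p = 0.75). The other CCNT2 probe, A_24_P174341, read -4.44, -4.12 and -3.23 in control and -4.02, -3.80 and -3.31 in SRSF2 over-expression arrays, was well above background on 3 and 5 arrays, and changed by 0.27 (SE 0.23, limma adjusted p = 0.331). The CCNT2 probes differed in their change by 1.28 within arrays (exact permutation test, two-sided p = 0.00216, 0.0152 adjusted over 7 pairs of probes), but the second probe passed the filter through the SRSF2 over-expression arrays alone. Without background subtraction the difference was 0.73 and did not pass (exact permutation test, adjusted p = 0.053). Which transcripts of CCNT2 each probe reads was not tested, since the probe sequences are not used here.

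CCNT1 was measured by 1 probe, A_23_P87575, that was well above background on 1 control and 4 SRSF2 over-expression arrays and was therefore kept out of the test. It read -6.19, -5.35 and -4.86 in control and -4.72, -4.43 and -4.01 in SRSF2 over-expression arrays, and the conditions did not overlap. Since most control arrays were not well above background, the level is given as a bound, and it was at least 1.27-fold higher on SRSF2 over-expression arrays, taking for each control array the higher of its own value and the lowest signal among probes well above background. Its size and its differences from other members are not given, since they would rest on control values at background. HEXIM1 A_23_P118552 rose by 0.65 relative to CDK9 A_23_P169470 (exact permutation test, two-sided p = 0.00433, adjusted 0.00866).

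SUPT5H, the large subunit of DSIF, read 1.86, 1.99 and 2.05 on control and 1.89, 1.99 and 2.07 on SRSF2 over-expression arrays of its 1 probe, A_23_P27840. The conditions overlapped. Its log2 change was 0.02 with a standard error of 0.05 (limma adjusted p = 0.724), and the slides differed in sign, at 0.15, 0.02 and -0.10. Relative to CDK9 A_23_P169470 it changed by 0.08 (exact permutation test, two-sided p = 0.396, adjusted 0.396).

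NELFCD, a subunit of the NELF core, rose on both probes. Probe A_23_P210643 read 3.03, 3.10 and 3.22 in control and 3.57, 3.63 and 3.68 in SRSF2 over-expression arrays, and probe A_24_P222126 read 0.43, 0.59 and 0.71 and 1.26, 1.45 and 1.50. No array of one condition reached those of the other on either probe. The log2 fold changes were 0.52 (SE 0.04, limma adjusted p = 5.35e-07) and 0.82 (SE 0.07, limma adjusted p = 7.21e-07). Within slides they were 0.50, 0.51 and 0.55 for the first and 0.78, 0.85 and 0.82 for the second. The second probe rose farther than the first, with a difference of -0.30 within arrays for the first minus the second (exact permutation test, two-sided p = 0.00433, adjusted 0.0152). With normexp the first probe rose by 0.63 with a limma adjusted p of 0.0553.

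NELFE, the RNA-binding subunit of the same complex, moved the other way. Probe A_23_P122545 read 3.96, 4.10 and 4.23 in control and 3.73, 3.82 and 4.02 in SRSF2 over-expression arrays, and probe A_24_P849628 read 5.48, 5.69 and 5.76 and 5.36, 5.45 and 5.66. The conditions overlapped on both probes. The mean fell by 0.25 on the log2 scale on the first (SE 0.07, limma adjusted p = 0.00911) and by 0.19 on the second (SE 0.06, limma adjusted p = 0.0206). Spike-in scaling raised the change of each member probe by the same 0.21, so that these changes became -0.04 (limma adjusted p = 0.917) and 0.02 (limma adjusted p = 0.956), still below the median of all probes, which was 0.22 there. Without slide 3 the first fell short of the threshold (-0.21, limma adjusted p = 0.109), and without slide 2 so did the second (limma adjusted p = 0.158). The second also lost its call with quantile normalization (-0.14, limma adjusted p = 0.223), with no filter on dim probes (limma adjusted p = 0.0536) and with means of 2 arrays and slide as a block (limma adjusted p = 0.0676), and with normexp both did (limma adjusted p = 0.754 and 0.816). The contrast between the NELF subunits did not rest on the scaling, because within arrays NELFCD A_23_P210643 rose by 0.71 relative to NELFE A_24_P849628 (exact permutation test, two-sided p = 0.00216, adjusted 0.00649).

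Probes of one gene did not always move alike. Of 7 genes with 2 probes, 4 (57.1%) showed a difference in change past an adjusted p of 0.05. They include CCNT2, whose second probe passed the filter through the SRSF2 over-expression arrays alone, so that its call rests on dim control values. Of all 2819 genes with 2 tested probes, 46.9% had an unadjusted p of at most 0.05 in the same exact permutation test and 37.1% an adjusted one, and with the p adjusted over these genes the members called were also 4. The count was 0 without background subtraction and without slide 1 or slide 2. Without slide 1 the LARP7, CCNT2 and NELFCD pairs had p = 0.0286, the smallest that 4 arrays against 4 allow, and adjusted p of 0.0667 (exact permutation test). The counts without a slide thus cannot tell a weaker difference from fewer arrays. With all arrays the 4 genes were CCNT2, NELFCD, LARP7, where the difference was 0.40 (exact permutation test, two-sided p = 0.00649, adjusted 0.0152), and HEXIM1, where it was 0.11 (p = 0.0173, adjusted 0.0303, same exact test). The HEXIM1 difference did not pass without control replicate 2 (exact permutation test, adjusted p = 0.0606). For HEXIM1 and NELFCD both probes rose all the same. The MEPCE, CDK9 and NELFE probes differed by 0.13, 0.37 and -0.06, with adjusted p of 0.522, 0.0909 and 0.522 in the exact permutation test. Of 6 pairs of members, 2 rest on CCNT1 and are not read, and of the other 4 pairs 3 passed, namely HEXIM1 with CDK9, LARP7 with MEPCE, and NELFCD with NELFE. With 1 slide left out 4 arrays stood against 4, where the smallest two-sided p of the exact permutation test is 0.0286, and these 3 pairs kept their sign with adjusted p of 0.0571 to 0.0857.

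**Figure D3:**
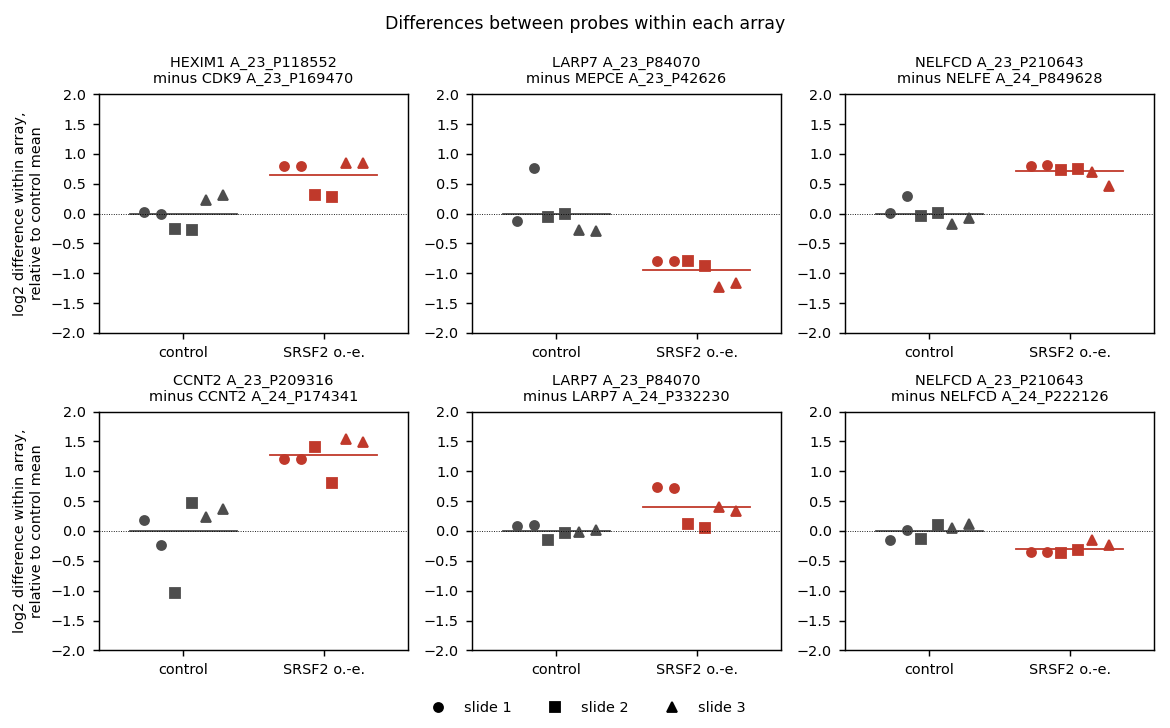
Difference in log2 signal between 2 probes of the same array (y axis, relative to the control mean) on control (grey) and SRSF2 over-expression arrays (red, "SRSF2 o.-e."), with symbols for slides and lines for means. The upper row sets members against each other and the lower row sets 2 probes of one gene against each other. The scaling of an array cancels in these differences, and the conditions lie apart in LARP7 minus MEPCE, NELFCD minus NELFE and the CCNT2 pair, while in the other 3 panels single arrays of the conditions overlap. The second CCNT2 probe passed the filter through the SRSF2 over-expression arrays alone.

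Around these genes, 65 further genes of pause release and elongation were examined as lists, of which 61 had tested probes, 90 in all. Of these 90 probes 25 rose and 33 fell, a share of 64.4% called beside 57.7% of all tested probes, and their median change was -0.03. Values in this and the next paragraph are log2 fold changes with limma adjusted p. The paralog HEXIM2, which can take the place of HEXIM1 in 7SK complexes, rose by 0.60 (adjusted p = 6.68e-06) on its 1 probe. Of 5 probes of the remaining DSIF and NELF subunits, 1 rose and 1 fell. SUPT4H1, the small DSIF subunit, rose on A_24_P1910 (0.46, adjusted p = 1.08e-05) and read 0.02 on A_23_P163942 (adjusted p = 0.801). NELFB, the scaffold of the complex, fell by 0.64 on the log2 scale (adjusted p = 0.0022), with overlap between conditions, and the 2 NELFA probes read 0.20 and -0.15 and did not pass the threshold. Among the NELF subunits, NELFCD rose, NELFE and NELFB fell and NELFA was not called.

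Of 22 probes of the super elongation complex and JMJD6, 9 rose and 5 fell. EAF1 (1.00, adjusted p = 3.61e-05), a partner of the ELL elongation factors, was well above background on 5 of 6 control arrays and was at least 1.89-fold higher. ELL3 (-0.57, adjusted p = 1.65e-06), of the ELL family itself, fell. MLLT3, a subunit that reads acylated histones, read 1.00 on 1 probe and -0.58, at least 1.22-fold lower, on another. The falling probe was well above background on 3 of 6 SRSF2 over-expression arrays and entered the test through the control arrays alone. In the PAF complex and its associated elongation factors 2 of 17 probes rose and 7 fell. A probe of SUPT16H (0.63, adjusted p = 0.000551) of the histone chaperone FACT and that of LEO1 (0.21, adjusted p = 0.00508) rose. The other SUPT16H probe read -0.53 and did not pass (adjusted p = 0.0561). RTF1 (-0.97, adjusted p = 1.51e-06) was at the lower end. Among transcriptional kinases and phosphatases of the polymerase tail 3 of 12 rose and 6 fell. The tail phosphatases CTDP1 (-1.07, adjusted p = 4.71e-07) and SSU72 (-0.72, adjusted p = 2.08e-08) fell, whereas RPAP2 (0.17, adjusted p = 0.0277), a phosphatase too, rose. A dim probe of the phosphatase PPM1A was well above background on 3 of 6 control arrays and entered the test through the SRSF2 over-expression arrays alone. It was at least 1.77-fold higher on them. The bright PPM1A probe, well above background on every array, read 0.09 and did not pass (adjusted p = 0.286). Of 16 probes of polymerase II subunits 4 rose and 8 fell. POLR2D, part of the detachable stalk of the enzyme, rose on both probes, by 1.25 and 1.07, whereas POLR2I (-0.41, adjusted p = 0.000222) and POLR2E (-0.36, adjusted p = 0.0031) fell. Of 17 Integrator probes 5 rose and 6 fell, the highest being INTS5 (0.94, adjusted p = 1.08e-08). INTS11, the endonuclease that cleaves nascent RNA at paused polymerases, read 0.82 on 1 probe and -1.01 on the other, and its partner INTS9 (-1.04, adjusted p = 3.36e-08) fell. Each list with over 1 probe held probes that rose and probes that fell.

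**Figure D4:**
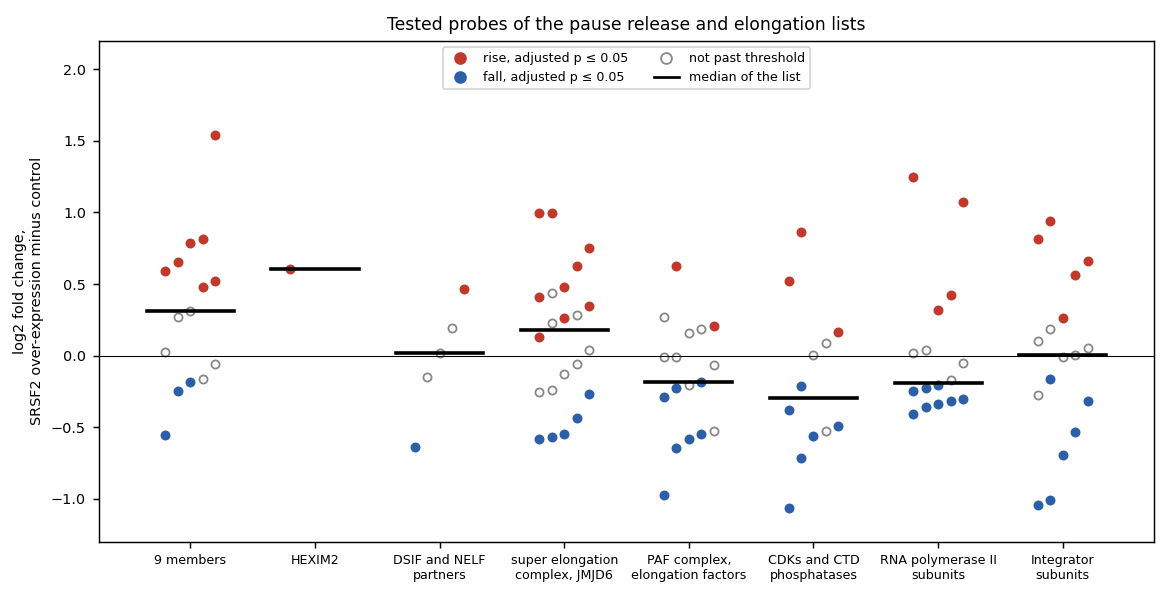
Log2 fold change (y axis, SRSF2 over-expression minus control) of each tested probe of the 9 member genes and of 7 lists of related genes. Filled points passed a limma adjusted p of 0.05 (red rise, blue fall), open grey points did not, and black lines are list medians. The member median of 0.31, which is the change of the uncalled CDK9 probe A_23_P158083, lies above the median of all related probes, -0.03. Probes of both directions appear in every list but that of HEXIM2.

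The 7 probes that rose had positive changes under every way of processing that was tried. Spike-in scaling added 0.21 to the change of each member probe, which by itself keeps rises positive, and there NELFE A_24_P849628 changed sign and the other 2 falls lost their call, while all 3 stayed below the median of all probes. With spike-in scaling 77.1% of all calls were rises, against 51.5% as reported, and 7 member probes rose and 0 fell. With normexp limma called 11.6% of all probes and 4 of 15 member probes, which were HEXIM1 A_23_P118552, both MEPCE probes and NELFCD A_24_P222126.

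**Figure D5:**
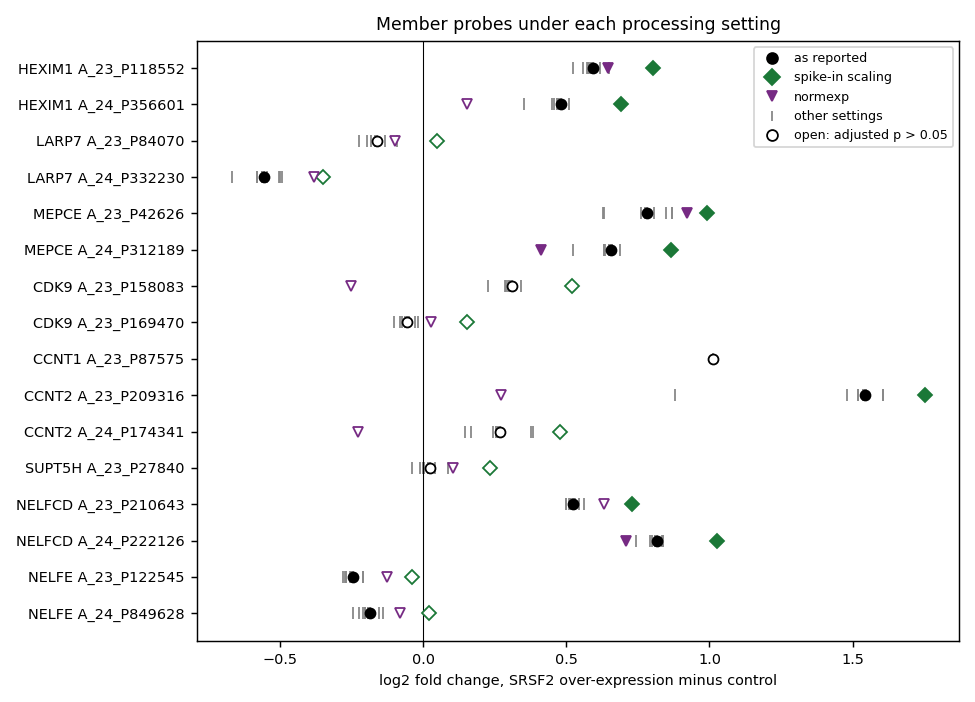
Log2 fold change (x axis, SRSF2 over-expression minus control) of each member probe under each way of processing, with the reported value in black, spike-in scaling in green, normexp in purple and the others as grey ticks. Open symbols have a limma adjusted p above 0.05 or, for CCNT1, no test. HEXIM1 A_23_P118552 stays between 0.52 and 0.80, and spike-in scaling lies to the right of the reported value for all 15 probes.

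As a description of which probes followed HEXIM1 most closely, the 23740 tested probes with a value on every array were ranked by Pearson's r with HEXIM1 A_23_P118552 over the 12 arrays, which share slides and scaling. The closest named genes were SETDB2, LLPH and ACOT2, each at 0.99, with log2 fold changes of 0.20, 0.53 and 0.71.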

How the data were processed

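The 12 arrays were single-colour Agilent 44k human arrays. The authors deposited, per the file headers, Feature Extraction 10.7.3.1 output, whose processed signal is an intensity after background subtraction and detrending, and other quality flags from the same software. The authors also deposited a table of log2 values made in GeneSpring, its scaling not stated, which followed the processed signals (correlation 0.998 over the values of 24330 probes) and served as an alternative. Here log2 of the processed signal minus the 75th percentile of each array was used, spots with outlier flags were left out and spots of a probe averaged. Probes were kept if missing on at most 25% of arrays and marked well above background on 5 or 6 of the 6 arrays of a condition. Conditions were compared with limma 3.58.1 (R 4.3.3), without blocks, with Benjamini-Hochberg adjustment over all 24330 probes kept. A call needed an adjusted p of at most 0.05, and deregulation also at least 2-fold. The code was tested on simulated data. Differences between 2 probes within arrays were tested by exact permutation over 924 arrangements (numpy 2.4.6), where the smallest two-sided p is 0.00216. All 12 arrays were treated as exchangeable in it, without regard to slide or labelling. The number of arrays limits the precision.

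Genes were named from RefSeq accessions, for 23958 of 25868 probes that carry one. All member probes, SRSF2, HEXIM2, SUPT4H1, NELFA and NELFB were named whatever their values, and in each other list up to 2 rises and 2 falls, the farthest with conditions that do not overlap. Of the lists, 1 gene is not reported here. Members and lists were chosen with earlier results of these data known. Alternatives changed the scaling (median, quantile, 7 spike-in probes), the background (normexp with offset 50, or none, both on the median spot signal), the filter, the outlier flags, the test, blocks and the arrays. Deviations from condition means of arrays with the same replicate number correlated at 0.28 to 0.64 in all 6 pairs, and those of arrays on the same slide with another number at 0.33 to 0.66, so the numbers pair arrays through the slide.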

Additional observations from a re-analysis of the deposited data

Results flagged for a closer look

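One value stood apart from its group. MEPCE probe A_23_P42626 read 0.54 on control replicate 2 (log2 signal relative to the 75th percentile), while the other 5 control arrays lay between 1.44 and 1.51. The gap was 0.926 of the range of the group, above Dixon's limit for 6 values. It was the only such value among 32 groups of 6 arrays examined, all of member probes, of which chance flags about 1 in 20. On the same array the second MEPCE probe, A_24_P312189, read -0.25, the lowest of control arrays that reached up to 0.00. Control replicate 2 also read lowest on probes outside the members. These included TCEA2 A_23_P147641 (-1.04, control median -0.24), ELL A_23_P16538 (-1.52, median -0.82) and INTS12 A_23_P81087 (0.13, median 0.70). It read highest on INTS7 A_23_P52082 (-0.40, median -0.79). Before scaling its 75th percentile was 795.6, the lowest of the 12 arrays. The cause was not tested. Without this array the MEPCE changes were 0.63 on both probes.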

How the results depend on the processing

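With the replicate number as a block limma called 15997 probes and 12 of 15 member probes, adding LARP7 A_23_P84070 and CDK9 A_23_P158083, and it changed no other member call. With means of 2 arrays and slide as a block the LARP7 call was lost (adjusted p = 0.147), as was that of NELFE A_24_P849628 (adjusted p = 0.0676), and 10 members were called. The call of CDK9 A_23_P158083 was kept there (limma adjusted p = 0.013). Spike-in scaling raised the median change of all probes by 0.21. It gave 6528 calls in all with 1497 falls, 0 falling members, 2 members past 2-fold, and 23 calls with 4 falls in the lists. Normexp, which lowered that median by 0.11, gave 2819 calls (1410 rises, 1409 falls), 4 members (4 rises, 0 falls, 0 past 2-fold) and 13 list calls (7 rises, 6 falls). The number of members past 2-fold was 0 without background subtraction, 2 with no filter on dim probes and 0 with all arrays required above background. Without slide 3, 1 member fell. The cause was not tested.

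Differences between probes of one gene that passed numbered 0 without background subtraction, without slide 1 or 2 and with means of 2 arrays, and those between members 0 without slide 1, 2 or 3 and with such means. With 4 arrays against 4 the smallest p of the exact permutation test is 0.0286, so the counts without a slide cannot tell a weaker difference from fewer arrays. With 3 values against 3 the smallest p is 0.1, so that setting says nothing about stability. Of values that did not pass, SUPT5H changed sign with median scaling (-0.0001), without background subtraction (-0.012) and without slide 1 (-0.040). Spike-in scaling turned LARP7 A_23_P84070 to 0.048, CDK9 A_23_P169470 to 0.15 and NELFE A_24_P849628, a called fall, to 0.021. Normexp turned CDK9 A_23_P158083 to -0.25, CDK9 A_23_P169470 to 0.028 and CCNT2 A_24_P174341 to -0.23. The within-array difference of the MEPCE probes was -0.0545 and that of SUPT5H and CDK9 -0.020 without slide 1, and that of HEXIM1 and CCNT1, whose control values lie at background, was 0.14 without background subtraction. Leaving out control replicate 2, chosen after seeing the data, turned the MEPCE difference to -0.0038 and ended the call of the HEXIM1 pair. Adjusting over all genes with 2 tested probes, also added later, left 4 such calls.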
